A study of Mus musculus with 2 samples.

Results

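The nuclear-encoded subunits of respiratory complexes II to V were compared between SoNar-high and SoNar-low blood cells of mouse fetal liver. Members were the genes named Sdha to Sdhd, those whose symbol starts with Uqcr, with Cox4, Cox5, Cox6, Cox7 or Cox8, or with Atp5, and that had a named probe on the array. This gave 47 genes of 20659 genes with a named probe: 4 of complex II, 8 of complex III, 18 of complex IV and 17 of complex V. A further 14 pseudogene symbols match the same pattern, and none of them had a probe. The rule reads symbols only and uses no measured value, but the group was taken up with earlier results of these data known. Of the 47 members, 44 were well above background on both arrays, and these are called measured.

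SoNar is a genetically encoded fluorescent sensor whose excitation ratio follows the NADH/NAD+ balance of the cytosol. Blood cells of E13.5 fetal liver were sorted by their F405/F488 fluorescence ratio. The SoNar-high sample (strain labelled C57BL/6) and the SoNar-low sample (strain labelled C57BL) each gave total RNA for 1 single-colour Agilent array. The sources used here do not say how the sensor was delivered or how many embryos were pooled.

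Each group had 1 array, so nothing was tested and no difference has a replicate check. The SoNar-high array had 49.4% of its 43020 spots other than controls well above background, and the SoNar-low array 42.4%. Signals below are processed intensities as the scanner software gave them, before any scaling. Each array was divided by its 75th percentile (186.5 units for SoNar-high and 222.2 for SoNar-low), and differences are on the log2 scale, SoNar-high minus SoNar-low, so negative values are lower in SoNar-high cells. Because these percentiles differ, equal signals give a difference above 0. Probes printed 10 times had a median spot SD of 0.16 for such a difference, and 0.13 where the signal was 1000 or more. Their spread covers spot-to-spot error only, not that between embryos, sorts or labelling reactions, and having 1 array a group also limits the precision.

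The respiratory chain passes electrons to oxygen and pumps protons across the inner mitochondrial membrane. Complex II (succinate dehydrogenase) feeds electrons from the TCA cycle into ubiquinone, complex III passes them to cytochrome c, and complex IV (cytochrome c oxidase) hands them to oxygen. Complex V, the ATP synthase, uses the proton gradient to make ATP. The chain also draws on NADH, the cofactor whose cytosolic state the sensor reads. Erythroid cells, the most numerous blood cells of the fetal liver, use mitochondria for heme synthesis and discard them at the end of maturation.

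Most members had a lower scaled signal on the SoNar-high array. Of 44 measured members, 37 (84.1%) had a difference below 0, where 55.8% of all 10223 measured genes did, and the median was -0.34 against -0.08 for all genes. The differences were small: 4 members were at least 2-fold lower (9.09%, where 4.44% of all genes were), and none was at least 2-fold higher (5.28% of all genes). At 1.5-fold, 11 members were lower (25.0% against 17.7% of all genes) and 1 was higher (13.8% of all genes). Of the 44 members 40 lay within 2-fold. Among genes with at least 1000 units on both arrays, 30 of 35 members (85.7%) and 62.0% of all genes were below 0. After a loess fit on mean signal 32 of 44 members (72.7%) and 48.5% of all genes were below 0. After quantile normalization, and in the deposited value table, it was 32 of 44 members and 52.7% of all genes, and where detected probes alone set the 75th percentile it was 33 of 44 members and 43.3%. At probe level, 54 of the 67 measured probes of the members had a negative difference. The same share over all measured probes of the array was not computed.

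**Figure D1:**
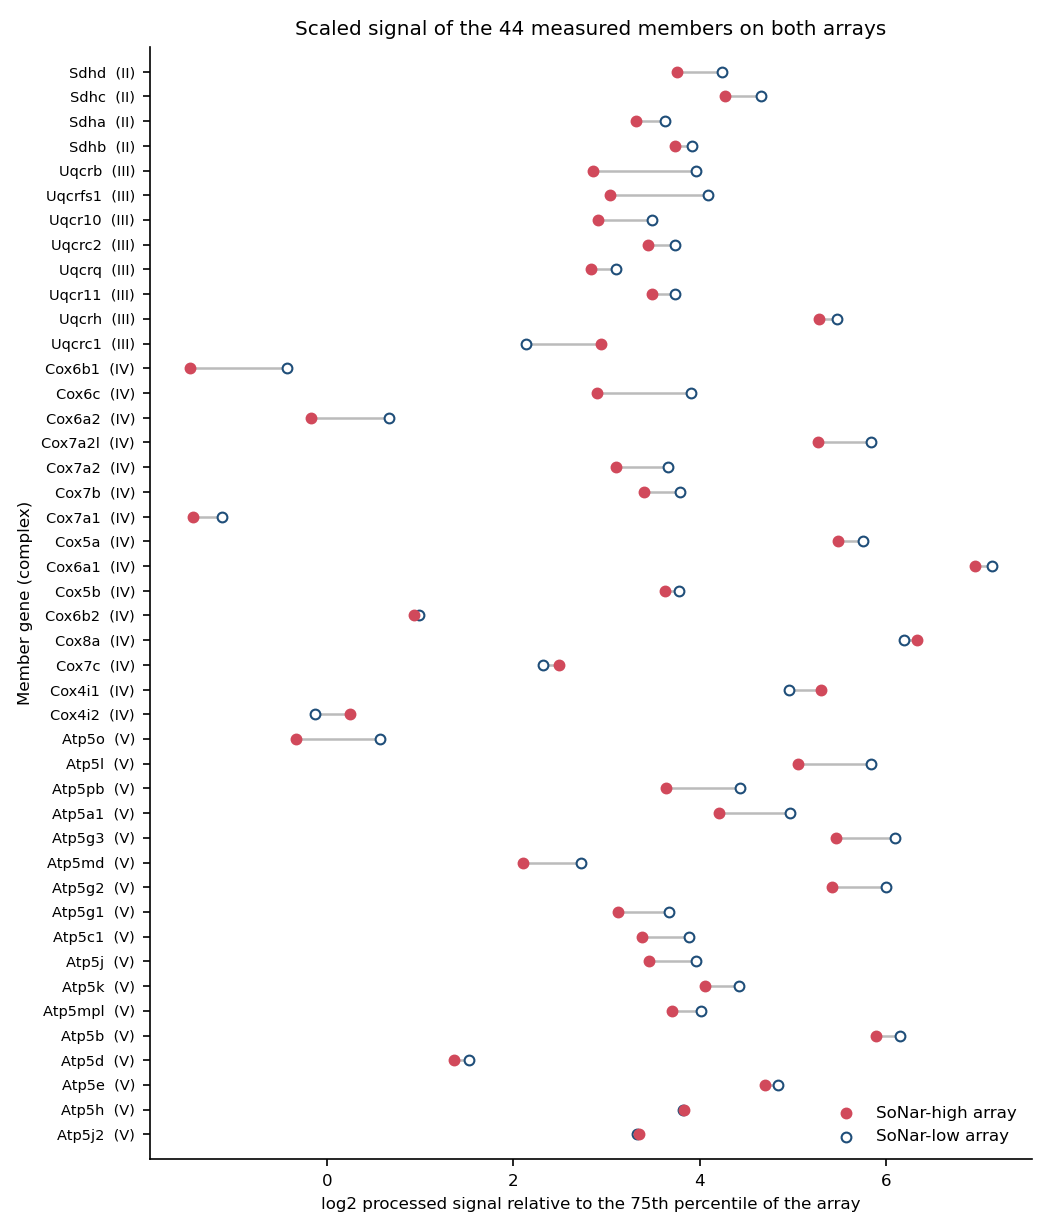
Log2 processed signal relative to the array's 75th percentile (x axis) for each of the 44 measured members (y axis, with the complex in parentheses), on the SoNar-high array (filled points) and the SoNar-low array (open points). The SoNar-high point lies left of the SoNar-low point for 37 members. Positions of different genes come from different probes and are not levels to be compared.

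The RefSeq promoter windows of GRCm38.p6 (250 bases before to 50 after each gene's start) were searched for the letters of factors known to act on respiratory genes. Letters of NRF1 and of ETS proteins stood in a larger share of the members than of all genes, a feature that the choice by symbol did not use. All genes here means every gene with a window, measured on the arrays or not. The share among measured genes was not counted. A window was present for 36 of the 47 members. On either strand, GCGCA followed by any base and GCGC, the letters bound by nuclear respiratory factor 1 (NRF1), stood in 10 of 36 members (27.8%) and in 5.19% of 27025 genes with a window. CCGGAAG, the core bound by ETS proteins such as GABPA, stood in 13 members (36.1%) and in 9.93% of genes. At least 1 of these motifs was found in 19 members (52.8%, against 14.0% of genes), and both in 4 members (11.1%, against 1.01%), Atp5h, Atp5k, Cox6a1 and Sdhd. AAGATGGCG, letters of the YY1 motif, stood in 2 members (5.56%, against 1.64%), and GGGCGG, the core of the SP1 motif, in 14 members (38.9%, against 38.2%). No matches of different motifs overlapped in the members.

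The windows of 4 members are shown, all picked from those with NRF1 or ETS letters. They were Uqcrc1 with the largest positive difference, Cox6b1 and Atp5o with negative ones, and Cox6a1 with a smaller one. Uqcrb and Uqcrfs1, the members with the lowest differences, are not among the 19 members found with such letters. Capitals mark NRF1 or ETS letters on either strand.
Uqcrc1 (chr9:108936398-108936697, plus strand): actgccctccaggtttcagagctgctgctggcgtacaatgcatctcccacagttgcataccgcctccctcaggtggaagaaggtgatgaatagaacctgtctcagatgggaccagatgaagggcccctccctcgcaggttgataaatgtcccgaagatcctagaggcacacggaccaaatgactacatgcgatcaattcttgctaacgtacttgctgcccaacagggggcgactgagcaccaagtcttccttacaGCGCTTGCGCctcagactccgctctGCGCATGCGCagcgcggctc
Cox6b1 (chr7:30626065-30626364, minus strand): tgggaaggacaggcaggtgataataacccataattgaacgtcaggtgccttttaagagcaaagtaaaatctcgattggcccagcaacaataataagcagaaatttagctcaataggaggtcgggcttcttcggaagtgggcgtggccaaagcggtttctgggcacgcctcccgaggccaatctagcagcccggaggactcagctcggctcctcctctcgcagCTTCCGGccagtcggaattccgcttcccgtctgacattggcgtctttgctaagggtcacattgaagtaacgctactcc
Cox6a1 (chr5:115348909-115349208, minus strand): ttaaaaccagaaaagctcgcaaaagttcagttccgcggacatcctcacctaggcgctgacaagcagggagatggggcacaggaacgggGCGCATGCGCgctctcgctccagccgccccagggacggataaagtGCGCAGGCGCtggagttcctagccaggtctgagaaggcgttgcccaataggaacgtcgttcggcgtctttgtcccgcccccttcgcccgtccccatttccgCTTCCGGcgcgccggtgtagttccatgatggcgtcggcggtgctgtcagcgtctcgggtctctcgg
Atp5o (chr16:91931581-91931880, minus strand): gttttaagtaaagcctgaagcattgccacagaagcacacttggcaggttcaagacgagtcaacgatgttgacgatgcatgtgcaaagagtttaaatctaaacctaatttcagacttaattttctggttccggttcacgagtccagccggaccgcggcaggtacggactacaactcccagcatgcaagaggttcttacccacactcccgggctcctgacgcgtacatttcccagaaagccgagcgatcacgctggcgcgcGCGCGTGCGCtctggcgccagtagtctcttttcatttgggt
Uqcrc1 holds 2 NRF1 matches downstream of its start, Atp5o 1 NRF1 match, Cox6b1 1 ETS match, and Cox6a1 2 NRF1 matches and 1 ETS match. Among measured members with a window, the median difference was -0.42 for the 10 with NRF1 letters and -0.29 for the 24 without. For ETS letters it was -0.24 for the 13 with and -0.39 for the 21 without. These medians are descriptions of these arrays, and a match shows letters in a window, not a bound site.

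All genes of complex II were slightly lower on the SoNar-high array, where 55.8% of all genes were below 0. None was lower by 1.5-fold (17.7% of all genes). Sdha, the flavoprotein that oxidises succinate, had a signal of 1857 units in SoNar-high cells and 2757 in SoNar-low cells, a scaled difference of -0.32. Sdhb, the iron-sulfur subunit, had 2481 units in SoNar-high cells and 3368 in SoNar-low cells (-0.19). The matrix subunits thus lay between -0.32 and -0.19. The membrane anchors hold the ubiquinone site. Sdhc had 3618 units in SoNar-high cells and 5611 in SoNar-low cells (-0.38, with its other probe at 0.10). Sdhd had 2524 units in SoNar-high cells and 4189 in SoNar-low cells (-0.48). The median of the 4 genes was -0.35, and their order depended on the probe, since Sdhc lay at -0.14 by the median over its probes. Sdhb was above 0 under 3 of 10 other settings (up to 0.04), while the other genes of the complex stayed below 0 under all 10.

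Complex III held the widest range of the complexes, from -1.10 to 0.80, around a median of -0.27. Of its 8 measured genes 7 were below 0 (87.5%, against 55.8% of all genes) and 6 were within 2-fold. At least 2-fold lower were 2 (25.0%, against 4.44% of all genes). Uqcrfs1, the Rieske iron-sulfur protein that hands electrons towards cytochrome c, had 1528 units in SoNar-high cells and 3788 in SoNar-low cells, 2.08-fold lower after scaling (-1.06). Uqcrb, a small subunit next to the ubiquinone site, had 1355 units in SoNar-high cells and 3459 in SoNar-low cells (-1.10, 2.14-fold lower). Its 3 probes did not agree: a second gave -1.30, whereas the third, with only 106 units in SoNar-high cells and 97.6 in SoNar-low cells, gave 0.38.

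The core proteins of complex III, which form its matrix arm, had differences of opposite sign. Uqcrc1 had 1428 units in SoNar-high cells and 976 in SoNar-low cells, 1.74-fold higher (0.80), and was the only measured member at least 1.5-fold higher. Uqcrc2 had 2033 units in SoNar-high cells and 2758 in SoNar-low cells (-0.28). Its probe was the only one of the members' probes that was printed 10 times, and its spots gave a log2 SD of 0.05 in SoNar-high cells and 0.23 in SoNar-low cells, or 0.24 for the difference. These SDs are between single spots, whereas the difference of Uqcrc2 is a mean over 10 spots on each array. Uqcrc1 was above 0 under all 9 other settings that measured it (0.80 to 1.01). Its value rests on 1 probe with 1 spot on each array. The filters that kept this probe and the median over probes returned the same value, so these settings are not separate checks.

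The remaining small subunits of complex III were within 1.5-fold. Uqcr10 had 1400 units in SoNar-high cells and 2500 in SoNar-low cells (-0.58, with its other probes at -0.29 and -0.15). Uqcrq, Uqcr11 and Uqcrh, the hinge protein, lay at -0.26, -0.24 and -0.19. Cyc1, the cytochrome subunit of complex III, falls outside the symbols that chose the members and was looked up after its value was seen. It had 1894 units in SoNar-high cells and 1755 in SoNar-low cells, a difference of 0.36, positive like that of Uqcrc1 under every other setting that measured it.

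**Figure D2:**
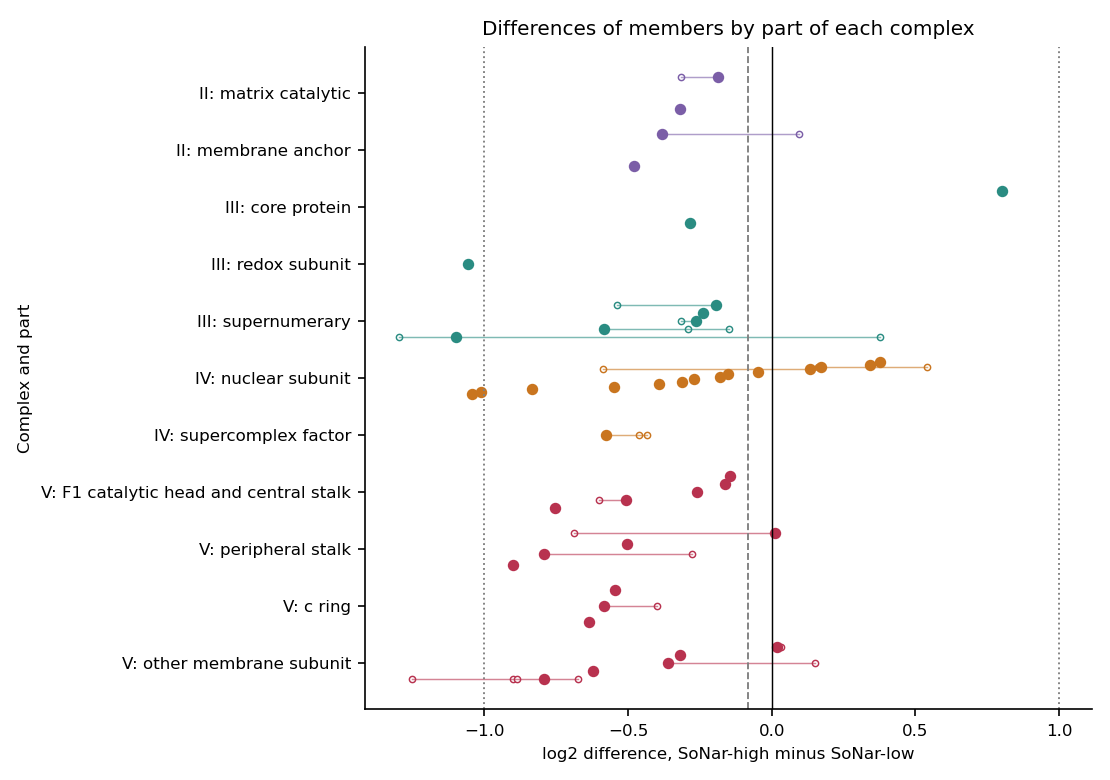
Log2 difference, SoNar-high minus SoNar-low (x axis), of the measured members by complex and part (y axis). Filled points are the probe that represents the gene, open points its other measured probes, joined by a line. Dotted lines mark 2-fold, the dashed line the median of all measured genes (-0.08). Uqcrc1 (0.80) lies apart on the right and the lowest values are Uqcrb (-1.10), Uqcrfs1 (-1.06), Cox6b1 (-1.04) and Cox6c (-1.01).

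Complex IV is built on a catalytic core encoded in mitochondrial DNA, and the members here are the nuclear-encoded subunits around it. Of 18 members 15 were measured, 11 of them below 0 (73.3%, against 55.8% of all genes). The measured genes had a median of -0.27 and a range of -1.04 to 0.38. Cox6b1, which faces the intermembrane space, had 67.3 units in SoNar-high cells and 165 in SoNar-low cells, 2.06-fold lower (-1.04). This is the lowest signal of any member that was at least 2-fold lower, and after normexp background correction its difference was -0.53. Cox6c, a membrane-spanning subunit, had 1393 units in SoNar-high cells and 3343 in SoNar-low cells, 2.01-fold lower (-1.01). The other 13 measured genes of the complex differed by less than 2-fold.

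Among broadly expressed subunits of complex IV, Cox4i1, Cox7c and Cox8a had differences above 0, and Cox5a, Cox5b and Cox7b below it. Cox4i1, the largest nuclear-encoded subunit, had 7374 units in SoNar-high cells and 6929 in SoNar-low cells (0.34). Cox7c had 1046 units in SoNar-high cells and 1106 in SoNar-low cells (0.17), with its other probes at 0.16 and 0.54. Both were above 0 under all 10 other settings. Cox8a had 15027 units in SoNar-high cells and 16304 in SoNar-low cells (0.14), but its other probe gave -0.59 and its median over probes was -0.23. Cox5a, on the matrix side, had 8365 units in SoNar-high cells and 12014 in SoNar-low cells (-0.27). Cox5b, a zinc-binding subunit, had 2304 units in SoNar-high cells and 3053 in SoNar-low cells (-0.15, up to 0.07 under other settings). Cox7b lay at -0.39.

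Subunits 4, 6a, 6b, 7a, 7b and 8 of complex IV exist as tissue isoforms, and the broadly expressed or liver-type form was measured for each. Cox6a1, the liver-type form, had 23171 units in SoNar-high cells and 31286 in SoNar-low cells (-0.18). Its heart and muscle counterpart Cox6a2 had 166 units in SoNar-high cells and 353 in SoNar-low cells (-0.83, 1.78-fold lower). Signals of the isoforms come from different probes and are not levels to be compared. Cox7a2, liver type, had 1607 units in SoNar-high cells and 2802 in SoNar-low cells (-0.55), and the heart and muscle form Cox7a1 had 69.0 units in SoNar-high cells and 102 in SoNar-low cells (-0.31). Cox7a2l, a related protein that joins complexes III and IV into supercomplexes, had 7190 units in SoNar-high cells and 12771 in SoNar-low cells (-0.58), and its 3 probes lay within 0.14 of each other. In each of these sets both isoforms lay below 0.

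The lung isoform Cox4i2 had 221 units in SoNar-high cells and 203 in SoNar-low cells (0.38), the same sign as Cox4i1. The testis isoform Cox6b2 had 358 units in SoNar-high cells and 440 in SoNar-low cells (-0.05), a value that turned positive under 6 of 9 other settings (up to 0.18). The 3 unmeasured members were all tissue isoforms of complex IV and were not well above background on either array. They were the testis forms Cox7b2 (6.41 units in SoNar-high cells and 9.22 in SoNar-low cells) and Cox8c (10.4 in SoNar-high and 7.80 in SoNar-low cells), and the heart and muscle form Cox8b (9.48 in SoNar-high and 9.97 in SoNar-low cells). No member was well above background on 1 array only.

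ATP synthase genes had the lowest median of the complexes, -0.51, and it was also the lowest under each of the 10 other settings. These settings are not separate checks. Scaling on detected probes shifts all genes alike, so it cannot change the order of the complexes. The filters on dim probes reuse the same values and left this median at -0.51, and the deposited table nearly repeats quantile normalization. Of 17 genes, all measured, 15 lay below 0 (88.2%, against 55.8% of all genes). None reached 2-fold, and 6 were at least 1.5-fold lower (35.3%, against 17.7% of all genes). The complex is a rotary machine: a catalytic head (F1) is turned by a ring of c subunits in the membrane, and a peripheral stalk holds the head still.

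In the F1 head and central stalk the 5 genes had a median of -0.26. Atp5a1, the alpha subunit, had 3456 units in SoNar-high cells and 6950 in SoNar-low cells (-0.76, 1.69-fold lower). Atp5b, the catalytic beta subunit, had 11052 units in SoNar-high cells and 15765 in SoNar-low cells (-0.26). Alpha and beta subunits alternate in the head, and their genes differed by unequal amounts here. Atp5c1, the rotating gamma subunit, lay at -0.51 with its other probe at -0.60. Atp5d and Atp5e, small parts of the central stalk, lay at -0.16 and -0.15 and were above 0 under some other settings (up to 0.02 and 0.09).

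The genes of the peripheral stalk had a median of -0.65. Atp5o, the subunit that ties the stalk to the head, had 148 units in SoNar-high cells and 330 in SoNar-low cells, 1.87-fold lower (-0.90). After normexp its difference was -0.48. Atp5pb, the long b subunit, had 2318 units in SoNar-high cells and 4786 in SoNar-low cells (-0.79, with its other probe at -0.28), and Atp5j lay at -0.50. Atp5h, the d subunit, was the exception, with 2664 units in SoNar-high cells and 3151 in SoNar-low cells (0.01). Its other probe, with 759 units in SoNar-high cells and 1457 in SoNar-low cells, gave -0.69, so the value of Atp5h depended on the probe.

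Genes of the c ring had similar differences. Atp5g1, Atp5g2 and Atp5g3 encode the same mature protein behind different import sequences. Atp5g1 had 1626 units in SoNar-high cells and 2825 in SoNar-low cells (-0.54). Atp5g2 had 7980 units in SoNar-high cells and 14235 in SoNar-low cells (-0.58), and its other probe gave -0.40. Atp5g3 had 8229 units in SoNar-high cells and 15240 in SoNar-low cells (-0.64). By their brightest probes the 3 genes thus lay between -0.64 and -0.54, while Atp5g2 lay at -0.49 by the median over its probes. Probes of such signals had a spot SD of 0.13, which leaves out differences between probes of a gene. The median spread between probes was 0.41 in members with more than 1 measured probe. Each of the 3 genes was below 0 under all 10 other settings.

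Of the other membrane subunits, Atp5l (subunit g) was lowest, with 6184 units in SoNar-high cells and 12774 in SoNar-low cells (-0.79, 1.73-fold lower). All 5 of its probes were below 0, from -1.25 to -0.67. Atp5md had 803 units in SoNar-high cells and 1473 in SoNar-low cells (-0.62), Atp5k, subunit e, lay at -0.36 (its other probe at 0.15) and Atp5mpl at -0.32. Atp5j2, subunit f, had 1902 units in SoNar-high cells and 2235 in SoNar-low cells (0.02, its other probe at 0.03).

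Probes of the same gene give a measure of error that spots do not. In the 16 members with more than 1 measured probe the median spread between probes was 0.41, the same as the 0.41 over 2021 such genes on the array. Probes of 5 members had both signs (Sdhc, Uqcrb, Cox8a, Atp5h and Atp5k), and only those of Uqcrb lay more than 1 apart. For 24 of the 44 measured members the difference was no larger than this spread. For 8 members the gene table lists pseudogenes named after them, Uqcrh, Cox5b, Cox6c, Cox7c, Atp5c1, Atp5pb, Atp5k and Atp5l, and a probe can bind transcripts of such near-identical copies, so their values are uncertain.

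Complex I and the mitochondrial ribosome, set beside these genes, had like medians. The 37 measured complex I genes were chosen by symbol and include Ndufa4. Their median was -0.31, with 32 below 0 (86.5%, against 55.8% of all genes). Of them 7 were at least 1.5-fold lower (18.9%), a share near the 17.7% of all genes. The 75 mitochondrial ribosomal protein genes had a median of -0.37, with 61 below 0 (81.3%) and 18 at least 1.5-fold lower (24.0%). The 81 cytosolic ribosomal protein genes had a median of -0.19, with 64 below 0 (79.0%) and 15 at least 1.5-fold lower (18.5%). Relative to all genes, complex I lay at -0.23 (-0.34 to -0.12 under the 10 other settings). The mitochondrial ribosome lay at -0.29 (-0.40 to -0.17) and the cytosolic ribosome at -0.10 (-0.24 to -0.020). How far the members lay from the cytosolic ribosome varied. They had -0.15 and -0.13 after quantile normalization, and -0.22 and -0.020 among genes of at least 1000 units. Differences between the families were not tested.

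**Figure D3:**
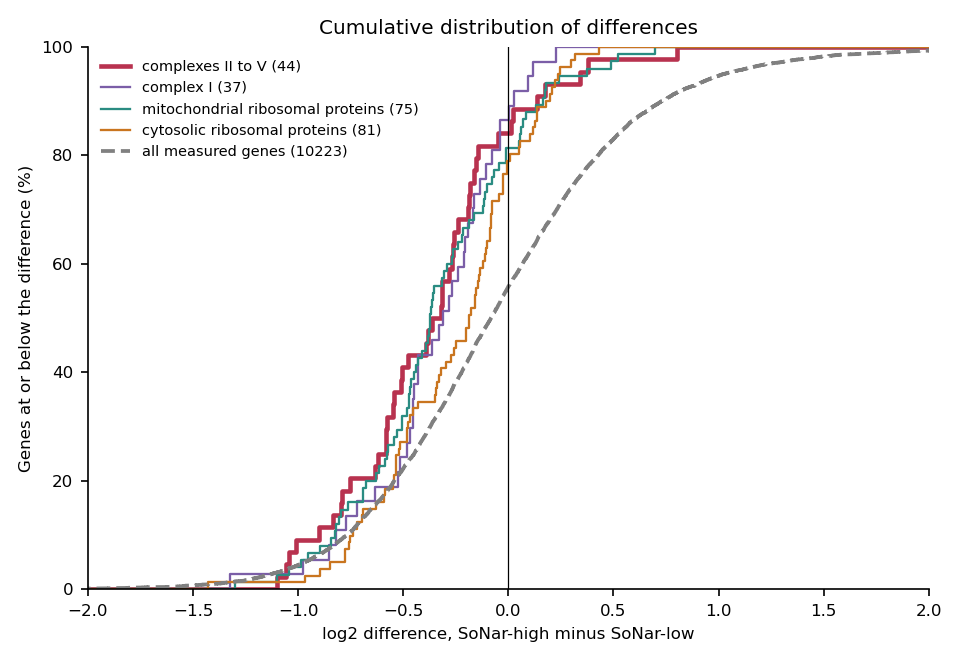
Cumulative share of genes (y axis, percent) at or below each log2 difference, SoNar-high minus SoNar-low (x axis), for 44 measured members, 37 complex I genes, 75 mitochondrial and 81 cytosolic ribosomal protein genes and all 10223 measured genes. At 0 the members reach 84.1% and all genes 55.8%. The curves of the members, complex I and the mitochondrial ribosome run close together.

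Electron carriers and assembly factors of complexes II to V, listed by function and not among the members, were also mostly below 0. The list also holds Cyc1 and Ndufa4, and Ndufa4 was counted among the complex I genes as well. Of 41 listed genes 31 were measured, with a median of -0.36 and 27 below 0 (87.1%, against 55.8% of all genes). At least 1.5-fold lower were 9 (29.0%, against 17.7%), and 2 were at least 2-fold lower (6.45%, near the 4.44% of all genes). Lrpprc, which stabilises mitochondrial messenger RNAs, had 345 units in SoNar-high cells and 944 in SoNar-low cells, 2.30-fold lower (-1.20). Sdhaf4, an assembly factor of succinate dehydrogenase, had 329 units in SoNar-high cells and 785 in SoNar-low cells (2.004-fold lower), and Tmem70, an ATP synthase assembly factor, had 196 units in SoNar-high cells and 458 in SoNar-low cells (-0.98). Cycs, cytochrome c itself, looked up after its value was seen, had 4678 units in SoNar-high cells and 10609 in SoNar-low cells (-0.93, its other probe -0.35).

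Among 19 listed factors of mitochondrial biogenesis and removal, 16 were measured, with a median of -0.39 and 13 below 0 (81.3%, against 55.8% of all genes). Tfb2m, a factor of mitochondrial transcription, had 157 units in SoNar-high cells and 517 in SoNar-low cells, 2.76-fold lower (-1.46). Gabpa, which binds ETS letters, had 265 units in SoNar-high cells and 666 in SoNar-low cells (-1.07, its other probe -0.19), and Yy1 had 282 units in SoNar-high cells and 604 in SoNar-low cells (-0.85). Nrf1, looked up because of its motif, lay at -0.10, with probes of both signs and values of -0.19 to 0.11 under other settings. The median pools factors of biogenesis with those of removal, and the latter did not share 1 direction. Bnip3l lay at 0.44 (its 4 probes from 0.02 to 0.44), Ulk1 at -0.02 and Pink1 at -0.03. Bnip3 lay at -0.54 with its other probe at 0.76, and Fundc1 at -0.76.

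Markers of several cell types also differed between the arrays. For comparison, 5.28% of all measured genes rose by 2-fold or more in SoNar-high cells, and 4.44% fell by as much. Erythroid markers were at least 2-fold higher in 12 of 13 measured genes, while Hemgn lay at -0.43 and Sptb was not measured. The measured erythroid markers had a summed scaled signal (units of the array's 75th percentile) of 179.7 in SoNar-high cells and 120.4 in SoNar-low cells. Macrophage markers were at least 2-fold higher in 7 of 8 (sums 100.3 in SoNar-high and 38.3 in SoNar-low cells), hepatoblast markers in 6 of 7 (78.6 in SoNar-high and 25.5 in SoNar-low cells) and endothelial markers in 4 of 6 (34.1 in SoNar-high and 21.8 in SoNar-low cells). The hepatoblast genes do not mark blood cells, the labelled tissue fraction. Csf1r, the macrophage exception, lay at 0.18 (its probes from -0.09 to 1.02). It had 5979 units in SoNar-high cells and 6309 in SoNar-low cells, and is part of the macrophage sums. Apoa2, the hepatoblast exception, lay at 0.89. Of the endothelial markers, Pecam1 lay at 0.01 and Egfl7 at -0.31. Of the unmeasured markers, Timd4 and Axl (macrophage), Ttr (hepatoblast) and Tek (endothelial) passed the background flag in SoNar-high cells only, and Mertk, Cd163 and Apoa1 in neither. Stem and progenitor markers were at least 2-fold lower in 3 of 10 measured genes (74.8 in SoNar-high and 118.3 in SoNar-low cells) and B lymphoid markers in 6 of 9 (24.4 in SoNar-high and 73.8 in SoNar-low cells). Natural killer and T cell markers were at least 2-fold lower in 4 of 6 (10.7 in SoNar-high and 34.0 in SoNar-low cells). The other 2, Cd3e (0.87) and Nkg7 (0.22), lay above 0. Mecom passed the flag in neither, and Rag2 and Il2rb in SoNar-low cells only. The part of these mixtures in the lower respiratory signals was not tested, and in such bulk RNA fewer cells of a type and less RNA per cell cannot be told apart.

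The medians of all members and of each complex were below 0 under every setting tried, though their size varied. Relative to the median of all genes, the members lay at -0.26, and between -0.37 and -0.15 under 10 other settings. Scaling on detected probes cannot alter such relative values, and the deposited table nearly repeats quantile normalization. Complex V lay at -0.43 relative to all genes (-0.53 to -0.28), complex II at -0.27 (-0.37 to -0.12), complex III at -0.19 (-0.39 to -0.065) and complex IV at -0.19 (-0.25 to -0.055). Of the 37 members below 0, 31 were below 0 under every other setting that measured them, and of the 7 above 0, Uqcrc1, Cox4i1, Cox4i2 and Cox7c remained so. No member was at least 2-fold lower under all settings, since none reached that size when arrays were scaled on the 75th percentile of detected probes (2.22% of all genes did). Uqcrb and Uqcrfs1 were at least 2-fold lower on the median of detected probes (3.65% of all genes), and with Atp5l after normexp (2.51%). Among genes of at least 1000 units the 2-fold lower members were Uqcrb, Uqcrfs1 and Cox6c (1.98% of all such genes). Cox6b1 alone was so after quantile normalization and in the deposited table (4.24% of all genes in each) and after loess (3.39%), where Uqcrc1 was at least 2-fold higher (6.35%).

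**Figure D4:**
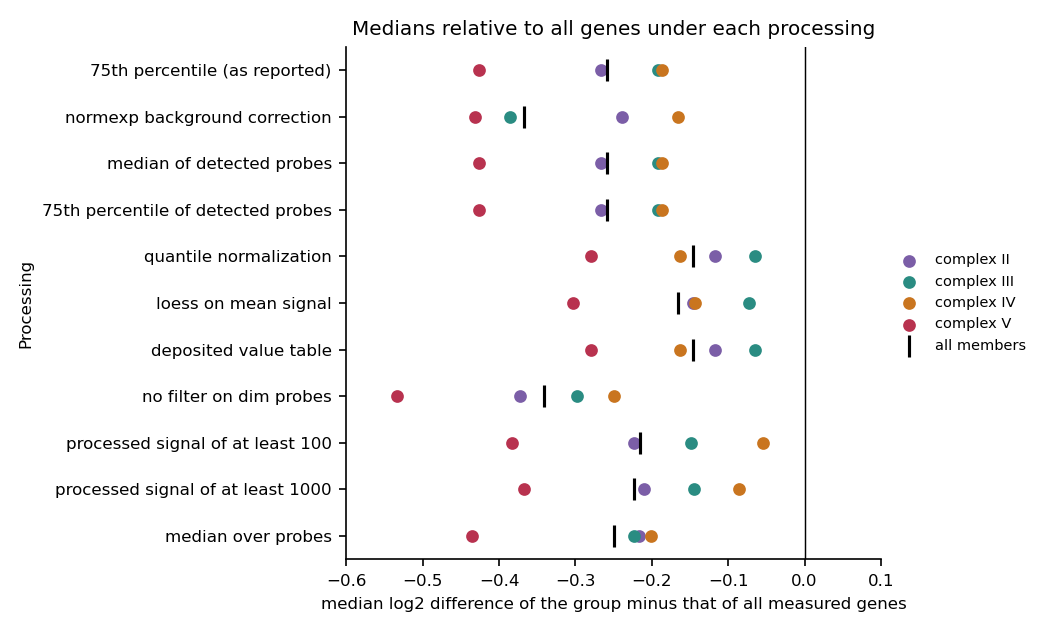
Median log2 difference (SoNar-high minus SoNar-low) of each complex minus that of all measured genes (x axis) under each processing (y axis). Coloured points are complexes and black bars all members. Every value is below 0, and complex V is the lowest at each setting, from -0.53 to -0.28 under the other settings. Scaling on detected probes cannot alter these relative values.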

How the data were processed

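Total RNA of sorted cells was made into Cy3-labelled cRNA and read as single-colour arrays, per the labels' protocols. Spot intensities were deposited by the authors as Agilent Feature Extraction output, whose processed signal is background-subtracted, per the file headers. The headers name version 11.0.1.1 and the submitters' processing notes 9.1, which was left unresolved. The deposited value table holds log2 values of unstated normalization. Its columns had medians of 4.80 each and correlated with their own array's log2 signal at 1.00, and its differences were those of quantile normalization to within 0.19. It served as an alternative.

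Control spots and outlier spots (225 for SoNar-high and 135 for SoNar-low) were left out, log2 processed signals were scaled on the 75th percentile and spots of a probe were averaged. A probe counted as measured where the majority of its spots on each array exceeded background clearly by the scanner flag and none was saturated (15975 of 39429 probes). A gene was represented by its measured probe of highest mean signal. Probes were named through transcript accessions in a RefSeq table of GRCm38.p6, which named 27234 probes, and no coordinates of the array design (mm9, per the file headers) were used. The 10 alternatives were normexp (limma 3.58.1, offset 50, on median spot signals), 3 scalings, loess (span 0.3), the deposited table, 3 filters on dim probes and the median over probes. The counting rule was tested on simulated data.

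Members and lists were chosen with earlier results of these data known. Named genes follow a rule: the 3 largest differences per complex, all Sdh genes, isoform sets, members above 0, members whose probes differ in sign by more than 1, and the 3 largest differences in each other list. Others were added after their values were seen or to complete a complex.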

Additional observations from a re-analysis of the deposited data

How the results depend on the processing

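The medians of all members and of each complex stayed below 0 under the 10 alternatives, while sizes followed the scaling. The median of all measured genes, -0.08 as reported, turned positive where detected probes alone set the 75th percentile (0.095, a shift of 0.18), after loess (0.018, a shift of 0.10) and with no filter on dim probes (0.024, a shift of 0.11). Medians of parts of a complex, of motif groups and of the carrier and biogenesis lists were not recomputed. With detected probes alone setting the 75th percentile, quantile normalization, loess and the deposited table the median of all members was -0.16, -0.18, -0.15 and -0.18, against -0.34 as reported. In the same order of settings complex II had -0.17, -0.15, -0.13 and -0.15, complex III -0.096, -0.0996, -0.054 and -0.0994, and complex V -0.33, -0.31, -0.28 and -0.31. Complex III had -0.44 after normexp, and complex IV -0.092 on the 75th percentile of detected probes. The count of members at least 2-fold lower, 4 as reported, was 2 on the median of detected probes, 0 on their 75th percentile, and 1 each after quantile normalization, loess and in the deposited table (Cox6b1 in each). It was 11 at 1.5-fold and 0 at 3-fold. The count at least 2-fold higher, 0 as reported, was 1 after loess (Uqcrc1, 1.01) and 1 at 1.5-fold. Of 429 values of single members under the alternatives, 171 moved by more than the spot SD of 0.16 and no difference of 2-fold changed sign. The causes were not tested. Members below 0 that turned positive under some setting were Sdhb, Uqcrh, Cox5b, Cox6b2, Atp5d and Atp5e, and those above 0 that turned negative were Cox8a, Atp5h and Atp5j2. After normexp 3 members were at least 2-fold lower, Atp5l (-1.20), Uqcrb (-1.29) and Uqcrfs1 (-1.19), 2 of them shared with the reported 4. No paired analysis was possible because each group has 1 array and no test was made, and for the same reason no array could be left out. Signal over background limits Cox6b1 and Cox7a1, which were below 100 units in SoNar-high cells, and to a lesser extent Atp5o, Cox6a2 and Cox4i2.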
